A study of Mus musculus with 7 samples.

Results

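The signal transducers and activators of transcription (STATs) were compared between T-cell leukemias of 2 mouse genotypes. The members were all probe sets annotated to exactly 1 of the symbols Stat2, Stat3, Stat4, Stat5a, Stat5b and Stat6, which took in all 6 genes (of 18193 genes named on the array) and 13 of the 45037 probe sets of an Affymetrix mouse expression array. A probe set is a group of short probes read out together as 1 value. Stat3 had 4 probe sets, Stat4 had 1 and each of the other genes had 2. The 3 ICN1 arrays held RNA of leukemic bone marrow from terminally ill C57Bl/6 mice of genotype ICN1, a form of the receptor NOTCH1 that signals without ligand. The 4 TEL-JAK2 arrays held RNA of leukemic thymus from terminally ill C57Bl/6 mice of genotype TEL-JAK2, a fusion that keeps the kinase JAK2 active. All samples were unsorted cell suspensions, and neither the age of the mice nor the promoter behind each oncogene is stated in the sources used here. Genotype and tissue coincide, so they cannot be told apart in any comparison. Each array's title carries a number of its own, whose meaning the labels do not state, so a p-value sets a difference against the spread between these samples, part of which may be technical.

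STATs are latent transcription factors that wait in the cytoplasm. When a cytokine binds its receptor, Janus kinases on the receptor's tail phosphorylate a STAT on a tyrosine, and the STAT then forms dimers, enters the nucleus and binds DNA. In lymphoid cells STAT5A and STAT5B act downstream of IL-2 and IL-7, STAT4 downstream of IL-12, STAT6 downstream of IL-4, STAT3 downstream of IL-6, IL-10 and IL-21, and STAT2 with its partner IRF9 downstream of type I interferon. Constitutively active JAK2 fusions are known to phosphorylate STAT5. Arrays measure STAT mRNA and not phosphorylation, so the values below are transcript levels and not activity.

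Values are log2 expression from RMA, 1 value per probe set and array, and array medians lay between 5.4 and 5.5. Over all probe sets, pairs of ICN1 arrays correlated at 0.973 to 0.982 (Pearson's r), pairs of TEL-JAK2 arrays at 0.9748 to 0.989 and arrays of different groups at 0.921 to 0.944. T-cell genes marked both groups, with a mean level of 11.08 to 11.59 in ICN1 and 11.60 to 11.77 in TEL-JAK2 (6 of 11 measured members called higher, 2 lower). Markers of other cells differed. Erythroid genes were lower in TEL-JAK2 for 8 of 9 members (12.09 to 12.36 in ICN1, 6.19 to 6.62 in TEL-JAK2), granulocyte genes for 5 of 10 (6.12 to 7.98 against 5.14 to 5.54), monocyte and macrophage genes for 4 of 10 (8.99 to 10.32 against 6.42 to 8.83) and megakaryocyte genes for 4 of 5 (6.89 to 8.58 against 5.63 to 5.84). NK-cell genes were higher for 1 of 4 members (4.78 to 5.22 against 6.00 to 7.53) and thymic epithelial genes for 3 of 8 (4.85 to 5.02 against 5.87 to 6.20). B-cell genes were higher for 1 of 8 and dendritic cell genes for 0 of 6, and stromal genes were lower for 1 of 8. Over all 18193 genes 11.9% were called higher and 12.2% lower, so the B-cell and stromal shares were near those of all genes. Nkg7 differed by 4.90 and the other NK-cell genes by 0.23 to 1.64. Epcam differed by 6.15 and the other thymic epithelial genes by -0.20 to 0.93. The part of these cells in the STAT values was not tested, and fewer cells of a type and less RNA per cell cannot be told apart in such bulk samples. ICN1 replicates 1 and 2 held both Xist (11.51 and 11.78) and the Y-linked Eif2s3y (8.93 and 9.41), so the STAT probe sets were also fitted without these arrays, and a call that then ends is given. ICN1 replicate 3 held Xist (12.09) and Eif2s3y at 3.25. In TEL-JAK2, replicate 4 held Eif2s3y (10.23) and Xist at 5.19, and replicates 1 to 3 held Xist at 13.12 to 13.36 and Eif2s3y at 3.18 to 3.29, so sex-linked transcripts differed within both groups. Pathway genes were refitted without single arrays, and without this pair of arrays only as a total count.

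Transcripts of STAT genes were higher in TEL-JAK2 leukemia wherever a difference was called. Of the 13 probe sets, 7 were called higher, 0 lower and 6 not called by limma at an adjusted p under 0.05 over all 45037 probe sets. Across the whole array 19.6% of probe sets were called, 9.26% higher and 10.3% lower. At an unadjusted p under 0.05 no STAT probe set was lower either. Groups did not overlap in 8 of the 13, all of them higher in TEL-JAK2, against 30.7% of all probe sets (16.2% in that direction). The median difference of the STAT probe sets was 0.51, against 0.04 for all probe sets. Probe sets of 1 gene share a transcript and are not independent counts. By gene, the call rested on Stat4, Stat2, Stat3, Stat5a and Stat6, and Stat5b was not called.

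**Figure D1:**
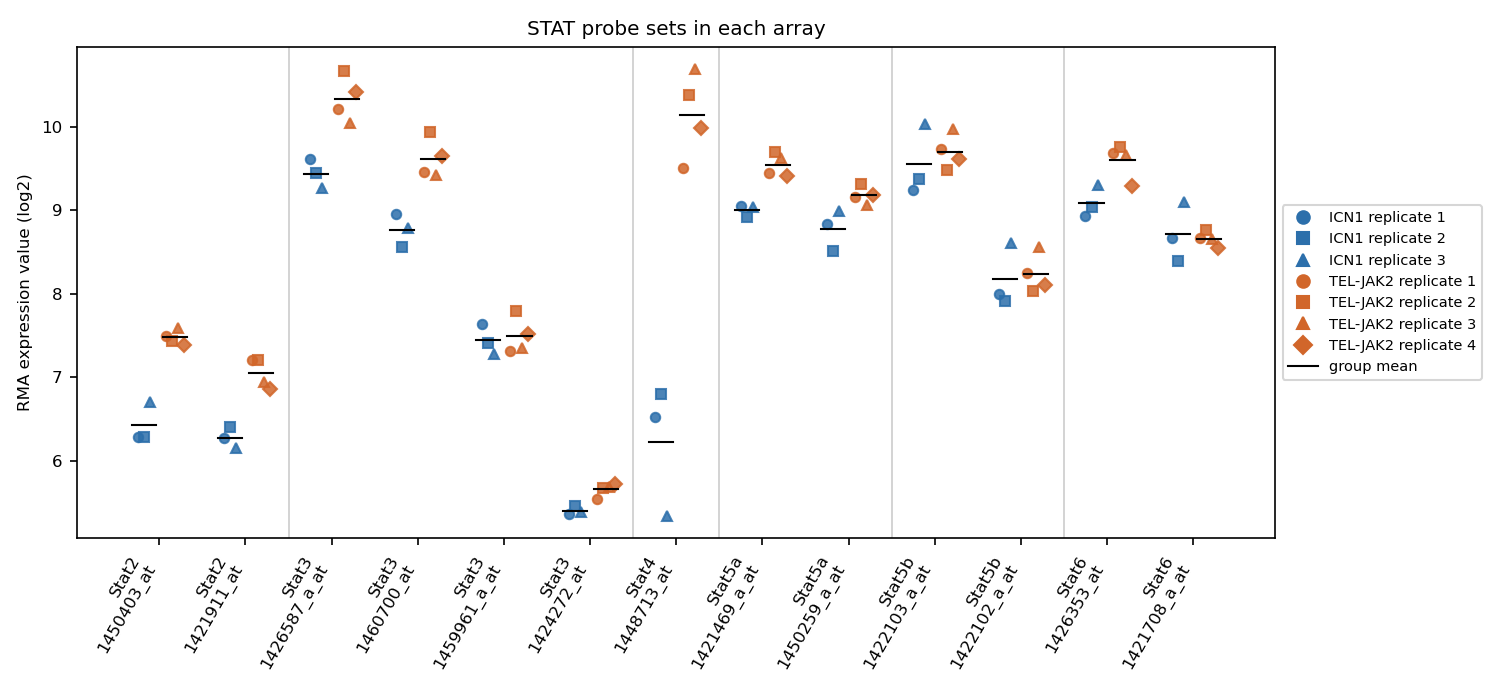
RMA expression (log2, vertical axis) of the 13 STAT probe sets, 1 symbol per array, with ICN1 in blue, TEL-JAK2 in orange and black bars at the group means. Stat4 moves from 5.34 to 6.80 in ICN1 to 9.51 to 10.69 in TEL-JAK2, and the 2 Stat5b probe sets overlap.

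The size of these calls depends on how the arrays are scaled. RMA brings all arrays to nearly 1 distribution. When each array was instead centred on its mean level of 4 CD3 genes (Cd3d, Cd3e, Cd3g, Cd247), which T cells express, every difference moved by -0.62 and the median over all probe sets moved to -0.59. Under that scaling 1 STAT probe set was higher, that of Stat4 (3.30 ± 0.32, adjusted p = 9.52e-05 by limma). Another 2 were then lower, 1459961_a_at of Stat3 (-0.57, adjusted p = 0.0303) and 1421708_a_at of Stat6 (-0.68, adjusted p = 0.02875). Over all probe sets 1558 were higher and 30005 lower with this centring. Of the 4 CD3 genes, Cd3d, Cd3g and Cd247 were themselves called higher in TEL-JAK2 before it, and Cd3e was not called. Other scalings moved the total of 8832 calls less. It was 8622 with arrays centred on their medians, 8945 with quantile normalization applied again and 8955 with cyclic loess. Of the 7 calls, that of Stat4 kept its direction and its side of the threshold in all 18 alternative fits tried, including a test against a 1.5-fold difference.

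**Figure D2:**
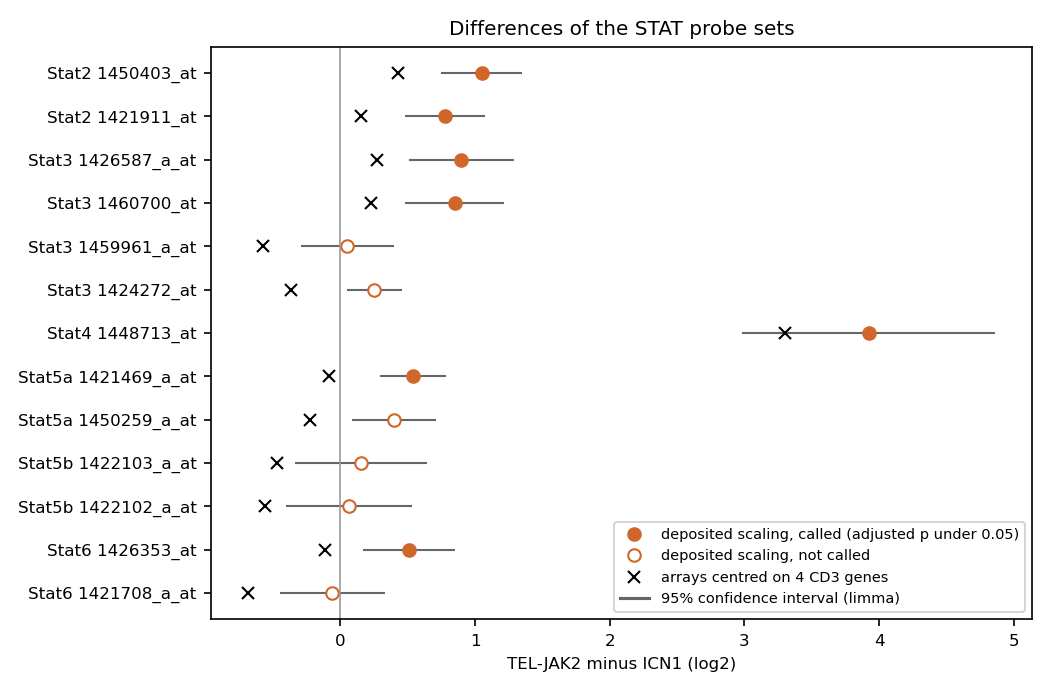
TEL-JAK2 minus ICN1 (log2, horizontal axis) for each STAT probe set, with 95% confidence intervals of the limma fit; filled circles were called and open circles were not. Crosses give the same difference after centring each array on 4 CD3 genes, where Stat4 stays at 3.30 and 8 of the other 12 probe sets lie below 0.

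Stat4, which transmits the IL-12 signal that drives type 1 helper T cells, changed most. Its probe set 1448713_at read 6.52, 6.80 and 5.34 in ICN1 replicates 1 to 3. The TEL-JAK2 values were 9.51, 10.38, 10.69 and 9.99 in replicates 1 to 4. All TEL-JAK2 arrays lay above all ICN1 arrays, with a gap of 2.71 between the closest 2, and ICN1 replicate 3 was the lowest. The means were 6.22 ± 0.78 (SD, n = 3) and 10.14 ± 0.51 (SD, n = 4). The difference of 3.92 ± 0.40 (SE) is 15.1-fold, with a 95% confidence interval of 2.98 to 4.86 and an adjusted p = 0.000807 by limma. The ICN1 values lie near the array medians, where RMA compresses folds. Without ICN1 replicates 1 and 2 the difference was 4.80 (adjusted p = 0.00382), and without any 1 array it ran from 3.48 to 4.21.

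Levels of NK-cell and effector genes within the TEL-JAK2 group are given beside those of Stat4, and their part in the Stat4 values was not tested. Stat4 was highest in TEL-JAK2 replicate 3 and lowest in replicate 1. The mean of the NK-cell list was 6.49, 7.53, 6.00 and 7.09 in replicates 1 to 4. Ncr1, which encodes an NK-cell receptor, read 4.33 to 4.61 there, below the array medians. Klrd1, another NK-list member, read 6.70, 7.39, 4.58 and 5.92 there, against an ICN1 mean of 4.51, and was not called. Eomes, also on the list, read 4.95, 5.95, 4.67 and 5.48, against an ICN1 mean of 4.71, and was not called. Nkg7, a cytotoxic granule gene, was the 1 NK-list member called higher (4.90 ± 0.66, adjusted p = 0.00219 by limma). Nkg7 read 9.98, 12.17, 10.34 and 12.34 in TEL-JAK2 replicates 1 to 4 and 5.84 to 7.06 in ICN1. It was thus high in all 4 TEL-JAK2 arrays, as Stat4 was. Ifng, the cytokine induced through STAT4, read 3.70, 10.24, 3.71 and 7.98 in those arrays, and Tbx21, which encodes T-bet, read 4.74, 8.53, 4.48 and 7.59. Ncr1, Klrd1, Eomes, Ifng and Tbx21 were picked for this comparison after their values were seen. Replicates 2 and 4 were thus high for Ifng and Tbx21.

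Stat2, which pairs with IRF9 in the response to type I interferon, was higher in both of its probe sets. Probe set 1450403_at read 6.29, 6.29 and 6.70 in ICN1 and 7.50, 7.44, 7.59 and 7.38 in TEL-JAK2. Probe set 1421911_at read 6.28, 6.41 and 6.15 in ICN1 and 7.21, 7.20, 6.95 and 6.86 in TEL-JAK2. Neither pair of groups overlapped, and the spread within TEL-JAK2 was 0.21 and 0.35. The first differed by 1.05 ± 0.13, which is 2.07-fold (adjusted p = 0.00165 by limma), and the second by 0.78 ± 0.13, 1.71-fold (adjusted p = 0.00541). Both calls held without any 1 array. With CD3 centring both stayed positive, at 0.43 and 0.15, and were not called (adjusted p = 0.0767 and 0.423).

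Promoter sequences from RefSeq (GRCm38.p6) were matched for all 6 genes, 9 windows in all, each from 250 bases before to 50 bases after an annotated start. The windows of Stat2 and Stat4 are shown because these genes had the largest differences and held the only matches of a searched motif. Both carry GAAA, any 2 bases and GAAA again, the core of the interferon-stimulated response element, at 222 bases before the start of Stat2 (as its reverse complement) and at 97 bases before the second start of Stat4. Stat2 also holds TTC and GAA with 4 bases between, the spacing preferred by STAT6, at 210 bases before the start. Motif matches are in capitals.
Stat2 promoter, chr10:128270248-128270547, plus strand: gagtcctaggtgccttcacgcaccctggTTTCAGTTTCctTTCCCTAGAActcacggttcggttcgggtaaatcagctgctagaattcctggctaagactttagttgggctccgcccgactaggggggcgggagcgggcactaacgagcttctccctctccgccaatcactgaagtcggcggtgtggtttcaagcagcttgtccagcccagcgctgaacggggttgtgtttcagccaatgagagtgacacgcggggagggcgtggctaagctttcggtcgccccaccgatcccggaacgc
Stat4 promoter, chr1:52007990-52008289, plus strand: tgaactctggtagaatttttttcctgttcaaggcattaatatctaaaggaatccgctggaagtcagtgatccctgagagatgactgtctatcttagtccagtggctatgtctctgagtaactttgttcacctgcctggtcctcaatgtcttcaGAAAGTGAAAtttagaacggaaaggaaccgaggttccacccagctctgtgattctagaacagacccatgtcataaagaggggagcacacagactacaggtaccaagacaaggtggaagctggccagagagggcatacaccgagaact
On both strands, the interferon-stimulated core occurred in 22.2% of the 9 STAT windows and in 3.44% of all 32851 windows, and the 4-base spacing in 11.1% and 6.95%. TTCNNNGAA, the spacing shared by most STATs, occurred in 0 STAT windows and 8.3% of all, and GTGGGAA, the letters bound by the NOTCH partner RBPJ, in 0 and 6.38%. A match describes letters only and is no measured binding site. The median GC content of the STAT windows was 57.7%, against 52.7% for all windows, and ranged from 46.0% for the printed Stat4 window to 82.7% for 1 window of Stat5b.

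Stat3, which carries signals of IL-6, IL-10 and IL-21, was higher in 2 of its 4 probe sets. Probe set 1426587_a_at read 9.62, 9.45 and 9.26 in ICN1 and 10.22, 10.67, 10.05 and 10.41 in TEL-JAK2. Probe set 1460700_at read 8.95, 8.57 and 8.79 in ICN1 and 9.46, 9.94, 9.42 and 9.66 in TEL-JAK2. Groups did not overlap in either, and both were highest in TEL-JAK2 replicate 2. The differences were 0.90 ± 0.17, 1.86-fold (adjusted p = 0.00939 by limma), and 0.85 ± 0.16, 1.80-fold (adjusted p = 0.00924). The second call ended without ICN1 replicates 1 and 2 together (0.83, adjusted p = 0.0760), while the first then had an adjusted p = 0.04915. With CD3 centring neither was called (0.27 and 0.23, adjusted p = 0.278 and 0.373).

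The other 2 probe sets of Stat3 did not show this rise. Probe set 1459961_a_at read 7.64, 7.41 and 7.28 in ICN1 and 7.32, 7.80, 7.36 and 7.52 in TEL-JAK2, with overlapping groups and a difference of 0.05 (95% confidence interval -0.29 to 0.40). Probe set 1424272_at read 5.36, 5.46 and 5.39 in ICN1 and 5.55, 5.68, 5.69 and 5.72 in TEL-JAK2, all near the array medians. Its groups did not overlap, by 0.08, but the difference of 0.25 ± 0.09 was not called (adjusted p = 0.0844). Differences between probe sets within an array do not change when all its values move by 1 amount, as in CD3 centring. Scalings that depend on the level can change them. Probe set 1426587_a_at exceeded 1459961_a_at by 1.98, 2.03 and 1.98 in the ICN1 arrays and by 2.90, 2.88, 2.69 and 2.90 in the TEL-JAK2 arrays, so the groups did not overlap in this difference either. The exact permutation test of this shift of 0.84 gave p = 0.0571 (two-sided, 0.114 after Benjamini-Hochberg adjustment over 10 pairs), the smallest p that 3 against 4 arrays allow. The sources used here do not say which Stat3 transcripts each probe set detects.

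**Figure D3:**
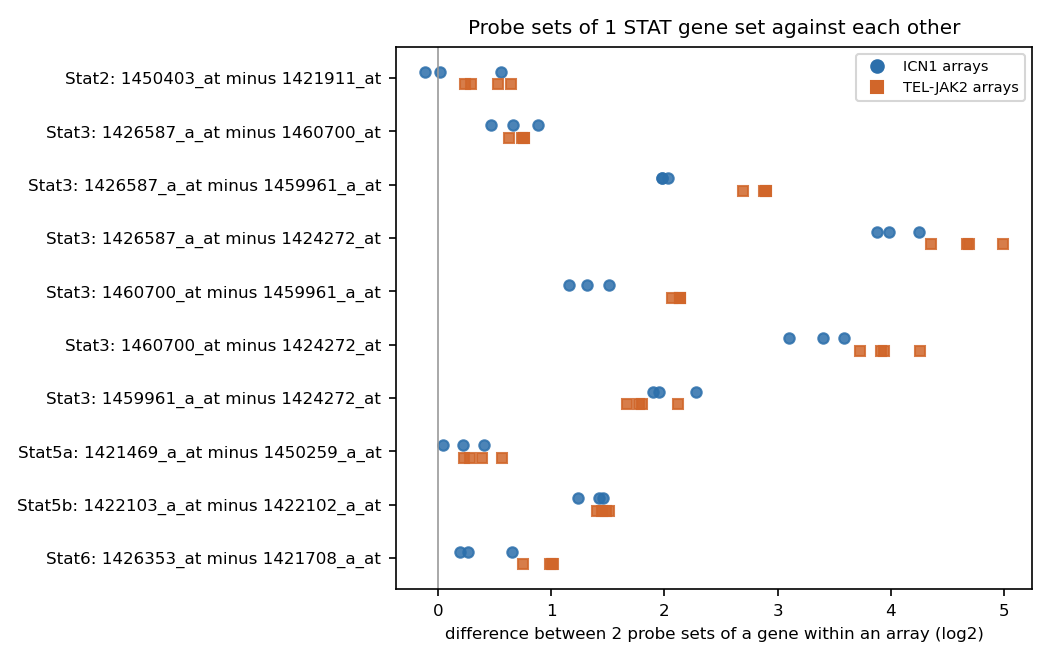
Difference between 2 probe sets of the same STAT gene within each array (log2, horizontal axis), with ICN1 arrays as blue circles and TEL-JAK2 arrays as orange squares. The groups separate for 5 of the 10 pairs, 4 of them in Stat3 and 1 in Stat6, and overlap for Stat2, Stat5a and Stat5b. Each separating pair sets a called probe set against an uncalled one, and the 4 pairs of Stat3 reuse the same values. They are therefore not separate results. The share of separating pairs among other genes was not computed.

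STAT5A and STAT5B are close paralogs encoded side by side on chromosome 11, where Stat3 is the next gene. Stat5a was higher in 1 of 2 probe sets. Probe set 1421469_a_at read 9.06, 8.92 and 9.04 in ICN1 and 9.44, 9.69, 9.62 and 9.41 in TEL-JAK2, without overlap. The difference was 0.54 ± 0.11, 1.45-fold (adjusted p = 0.0113 by limma). It turned to -0.08 with CD3 centring, and it was not called without ICN1 replicates 1 and 2 together (0.50, adjusted p = 0.119). Probe set 1450259_a_at read 8.84, 8.51 and 8.99 in ICN1 and 9.16, 9.31, 9.06 and 9.19 in TEL-JAK2. Here too the groups did not overlap, by 0.07, and the difference of 0.40 ± 0.13 was not called (adjusted p = 0.0778) except without ICN1 replicate 3 (0.50, adjusted p = 0.0462).

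Stat5b was not called from either probe set. Probe set 1422103_a_at read 9.24, 9.37 and 10.03 in ICN1 and 9.74, 9.49, 9.97 and 9.61 in TEL-JAK2. Probe set 1422102_a_at read 8.004, 7.92 and 8.61 in ICN1 and 8.25, 8.04, 8.56 and 8.11 in TEL-JAK2. Both were highest in ICN1 replicate 3, so the groups overlapped. The differences were 0.15 (95% confidence interval -0.34 to 0.64) and 0.06 (-0.41 to 0.54), so a rise of up to 0.64 in the first reading and 0.54 in the second lies within the intervals. Both turned negative with CD3 centring (-0.47 and -0.56) and without ICN1 replicates 1 and 2 together (-0.33 and -0.37), and none of these 4 values was called. The shift of Stat5a against Stat5b within arrays was 0.39, with overlapping groups (exact permutation p = 0.229, two-sided), so a difference between the paralogs was not shown. Whether the probes tell the paralogs apart was not tested.

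Stat6, the mediator of IL-4 and IL-13 signals, was called from 1 of 2 probe sets, and that call was fragile. Probe set 1426353_at read 8.94, 9.04 and 9.30 in ICN1 and 9.69, 9.75, 9.67 and 9.29 in TEL-JAK2. ICN1 replicate 3 and TEL-JAK2 replicate 4 overlapped by 0.0057. The difference was 0.51 ± 0.15, 1.42-fold (adjusted p = 0.0484 by limma). It was called in 2 of the 7 fits without 1 array, those without ICN1 replicate 3 and without TEL-JAK2 replicate 4, and in the other 5 the difference was 0.43 to 0.49. By limma, adjusted p was 0.145 and 0.125 without ICN1 replicates 1 and 2, and 0.1185, 0.114 and 0.1104 without TEL-JAK2 replicates 1, 2 and 3. Without ICN1 replicates 1 and 2 together it was 0.30 (adjusted p = 0.443), and with CD3 centring it turned to -0.11. Probe set 1421708_a_at read 8.67, 8.39 and 9.10 in ICN1 and 8.67, 8.77, 8.66 and 8.55 in TEL-JAK2, with a difference of -0.06 (95% confidence interval -0.45 to 0.33). Within arrays the first exceeded the second by 0.27, 0.65 and 0.20 in ICN1 and by 1.02, 0.99, 1.003 and 0.75 in TEL-JAK2, without overlap (exact permutation p = 0.0571, two-sided).

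Set against each other within arrays, STAT genes were shifted by different amounts in these samples, and no pair reached an exact permutation p under 0.05. Of the 15 pairs of genes, each taken from its probe set with the highest mean, 8 separated the groups. All 5 pairs with Stat4 did: the shift of Stat4 was 2.87 over Stat2, 3.02 over Stat3, 3.38 over Stat5a, 3.77 over Stat5b and 3.41 over Stat6. Stat2 was also shifted over Stat5a (0.51), Stat5b (0.90) and Stat6 (0.54) without overlap. The remaining pairs overlapped, among them Stat2 with Stat3 (0.15) and Stat3 with Stat5b (0.74). Each of the 8 had an exact permutation p = 0.0571 (two-sided, 0.107 after Benjamini-Hochberg adjustment over the 15 pairs), the smallest that can be reached. Pairs that share a gene reuse its values and are not independent. The share of separating pairs among other genes was not computed.

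Arrays of a group differed in which STAT was high. In TEL-JAK2, replicate 2 was the highest array for 7 of the 13 probe sets, among them 3 of Stat3, both of Stat5a and both of Stat6, and replicate 3 for 4, those of Stat4 and Stat5b and 1 of Stat2. In ICN1, replicate 3 was the highest for 6, including all 4 probe sets of Stat5b and Stat6, and also gave the lowest Stat4 value. The same array had the lowest granulocyte list (6.12, against 6.98 and 7.98) and macrophage list (8.99, against 10.32 and 10.11) of its group. It was also lowest for the erythroid, megakaryocyte, B-cell, dendritic cell, NK-cell and stromal lists, but not for the T-cell and thymic epithelial lists. The part of these cells was not tested.

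Genes whose pattern over the 7 arrays was most like that of each STAT gene were found by Pearson's r, over 1 probe set per gene with an SD of at least 0.5. Both groups enter each r, which is given as a description. Nearest to Stat4 were Galns, which encodes a lysosomal sulfatase (r = 0.994), Tnfrsf18, which encodes the costimulatory receptor GITR (0.991), and D16Ertd472e (0.990). Nearest to Stat3 were the interferon-inducible GTPase genes Gbp6 (0.994) and Ifi47 (0.993) and the peptide transporter gene Tap1 (0.992). Stat2 had Zbtb4 (0.995), Gpat3 (0.994) and Sigirr (0.994). Stat5a had A930024E05Rik (0.999), Myof (0.990) and Flot1 (0.990), and Stat6 had Spopl (0.992), Nyap1 (0.987) and Hif1an (0.984). Stat5b had Kif1b (0.992), Ulk2 (0.922) and Frat2 (0.914), none of them called between the groups. Because r spans both groups, that these genes were uncalled like Stat5b is no separate result.

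The other genes of the pathway were read from 1 probe set per gene, the one with the highest mean, in a fit over 18193 genes. Of these genes 24.1% were called, 11.9% higher and 12.2% lower in TEL-JAK2, with a median difference of 0.04. In that fit, 42 of the 111 measured pathway genes were called. Among the receptors that feed STATs, 11 of 22 were higher, 2 lower and 9 not called (median 0.74). Il21r, the IL-21 receptor, rose 6.40-fold (2.68 ± 0.19, adjusted p = 0.000162 by limma), Il10ra, a subunit of the IL-10 receptor, 7.99-fold (2.997 ± 0.27), and Ifnar1, a subunit of the type I interferon receptor, 2.47-fold (1.30 ± 0.10). Epor, the erythropoietin receptor of red cell precursors, fell 13.3-fold (-3.74 ± 0.12, adjusted p = 3.29e-06), alongside the erythroid markers. Il6st, which encodes the shared receptor chain gp130, was lower by -0.90 ± 0.22, a call that ended without TEL-JAK2 replicate 1 or 2 (adjusted p = 0.0512 and 0.0540). Il2ra, the alpha chain of the IL-2 receptor (0.51 ± 0.49), and Ifnar2 (0.09 ± 0.22) were not called, although Ifnar2 was from the mean of its probe sets (0.64, adjusted p = 0.0254). Receptors for several of the cytokines that signal through STATs were thus higher in TEL-JAK2 where they differed, with Epor and Il6st as the exceptions.

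**Figure D4:**
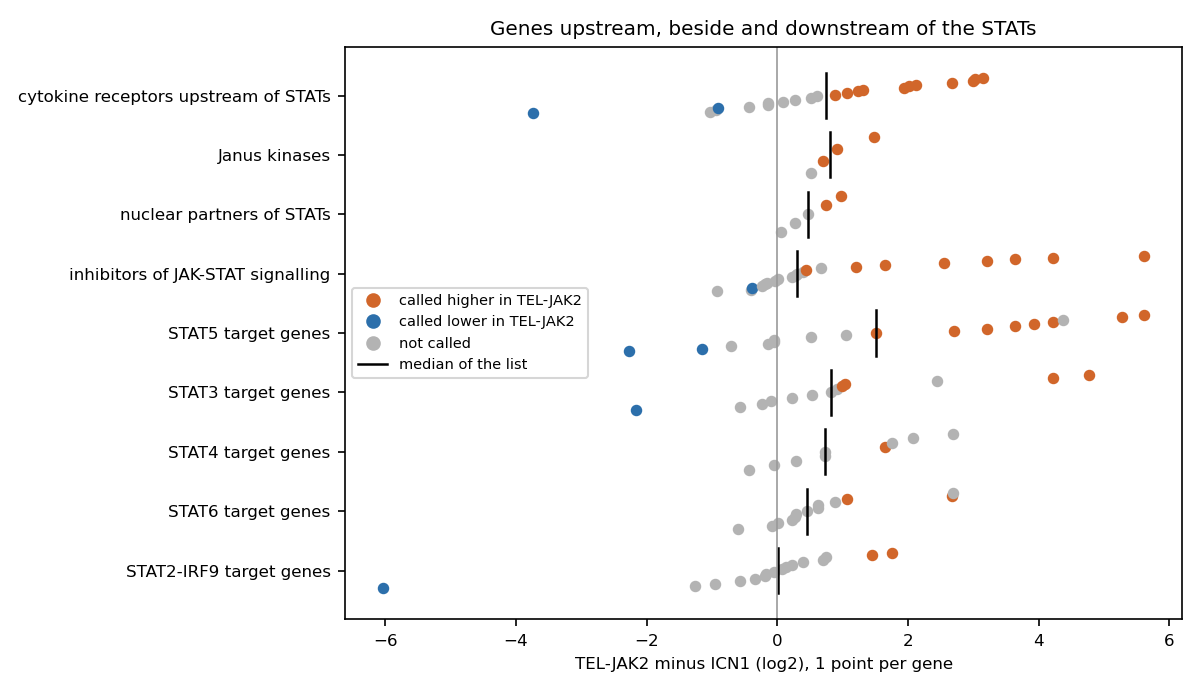
TEL-JAK2 minus ICN1 (log2, horizontal axis) of the genes around the STATs, 1 point per gene and 1 row per list, with called genes in orange (higher) or blue (lower), others in grey, and a black bar at each list's median. STAT5 target genes have the highest median, 1.503, and STAT2-IRF9 target genes lie around 0.01 with Rsad2 at -6.03. Some genes, such as Socs3, appear in more than 1 row.

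Among the Janus kinases, 3 of 4 were higher. Tyk2 read 7.89, 7.74 and 8.06 in ICN1 and 8.53, 8.80, 8.55 and 8.51 in TEL-JAK2 (0.70 ± 0.12, adjusted p = 0.00568 by limma). Jak3, the kinase of the common gamma chain, differed by 1.48 ± 0.28, and Jak1 by 0.91 ± 0.20. With CD3 centring Tyk2 and Jak1 were no longer called (adjusted p = 0.736 and 0.167). Jak2 itself differed by 0.52 ± 0.25 and was not called, except without ICN1 replicate 1 (0.84, adjusted p = 0.00816) and from the mean of its probe sets (0.93, adjusted p = 0.0304). It was not tested whether its probes read the fusion.

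Of 5 nuclear partners measured, 2 were higher and 3 not called. Nmi, which binds STATs (0.74 ± 0.19), lost its call without any 1 ICN1 array or without TEL-JAK2 replicate 1 (adjusted p from 0.0607 to 0.0730). Ncoa1, a coactivator (0.97 ± 0.26), stayed called when ICN1 replicate 2 or TEL-JAK2 replicate 4 was left out and lost its call in the other 5 such fits (0.0589 to 0.0714). Neither was called with CD3 centring (adjusted p = 0.655 and 0.138), and Ncoa1 was not called from the mean of its probe sets (0.0815). Irf9, the partner of STAT2, differed by 0.48 ± 0.31, and the acetyltransferase genes Crebbp and Ep300 by 0.27 ± 0.16 and 0.05 ± 0.11, none of them called. Crebbp was called from the mean of its probe sets (0.50, adjusted p = 0.0258).

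Inhibitors of the pathway were higher for 8 of 21 genes, lower for 1 and not called for 12 (median 0.31). The feedback inhibitors Cish, Socs1 and Socs3 and Ptpn1, a phosphatase of JAK2 and TYK2, had the smallest adjusted p. Ptpn1 read 10.02, 10.12 and 10.23 in ICN1 and 12.43, 12.60, 12.58 and 13.07 in TEL-JAK2, a 5.86-fold rise (2.55 ± 0.16, adjusted p = 8.35e-05 by limma). Ptpn11, which encodes the phosphatase SHP2, was the 1 member lower (-0.39 ± 0.11), and was called in 1 of the 7 fits without 1 array, that without TEL-JAK2 replicate 2 (adjusted p from 0.0563 to 0.101 in the other 6). Ptprc, which encodes the phosphatase CD45 (0.28 ± 0.10), and the ubiquitin ligase gene Cbl (0.67 ± 0.29) were not called. Cbl was called without ICN1 replicate 3 (0.98, adjusted p = 0.0352) and from the mean of its probe sets (0.85, 0.0351). Of the 8 CIS and SOCS genes, singled out after their values were seen, 4 were higher (Cish, Socs1, Socs2 and Socs3) and 4 were not called (Socs4, Socs5, Socs6 and Socs7, with differences from -0.92 to -0.03).

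Target genes were listed for each STAT from general knowledge, and 1 gene may answer to several factors. Lists share members, so their counts are not independent. Of the called genes, Cish, Socs1, Socs2 and Socs3 stand in the inhibitor and STAT5 lists, and Socs3 also in the STAT3 list. Il4ra stands in the receptor and STAT6 lists. Among 17 STAT5 target genes, 8 were higher, 2 lower and 7 not called, with a median of 1.503. Bcl2, which blocks mitochondrial cell death, read 8.20, 7.40 and 7.21 in ICN1 and 12.62, 12.75, 12.91 and 13.22 in TEL-JAK2 (5.27 ± 0.26, adjusted p = 2.43e-05 by limma). Cish differed by 3.21 ± 0.14, Socs1 by 3.64 ± 0.20 and Socs3 by 4.22 ± 0.26. Myc (-1.16 ± 0.25) and Id1 (-2.26 ± 0.50) were lower, and Id1 was not called without ICN1 replicate 2 (adjusted p = 0.0581). Ccnd3, which encodes cyclin D3, differed by -0.05 ± 0.14 and was called with CD3 centring (-0.67, adjusted p = 0.0139).

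Of 13 STAT3 target genes measured, 4 were higher, 1 lower and 8 not called (median 0.82). Besides Socs3, these were Vegfa, an angiogenic growth factor, which rose 27.2-fold (4.77 ± 0.37, from an ICN1 mean of 5.33 near the array medians), Hif1a, the hypoxia-inducible factor (0.98 ± 0.23), and the transcription factor gene Cebpb (1.04 ± 0.25). Hif1a was not called without TEL-JAK2 replicate 1 (adjusted p = 0.0539) and Cebpb not without TEL-JAK2 replicate 2 (0.0510), nor was either with CD3 centring (0.255 and 0.175). Birc5, which encodes survivin and marks dividing cells, fell 4.49-fold (-2.17 ± 0.27, adjusted p = 0.00168 by limma). The transcription factor genes Maf (2.45 ± 0.90) and Batf (0.92 ± 0.46) were not called.

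Of 9 STAT4 target genes, 1 was higher and 8 were not called (median 0.73), a share near the 11.9% of all genes called higher. Furin, a protease gene induced by IL-12, read 7.01, 6.75 and 6.74 in ICN1 and 8.43, 8.08, 9.52 and 7.90 in TEL-JAK2 (1.65 ± 0.37, adjusted p = 0.0169 by limma). Its call ended without ICN1 replicates 2 or 3 (adjusted p = 0.0544 and 0.05005). Gadd45g (0.73 ± 0.39) and Gadd45b (-0.05 ± 0.42), growth arrest genes, were not called, though Gadd45g was without TEL-JAK2 replicate 3 (1.07, adjusted p = 0.0294). The list's mean was 5.79, 7.54, 5.74 and 7.13 in TEL-JAK2 replicates 1 to 4 and 5.37 to 5.65 in ICN1, so replicates 2 and 4 stood above the other TEL-JAK2 arrays. Without TEL-JAK2 replicate 1 or 3, 2 of the 9 genes were called higher, and without replicate 4 1 was called lower.

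Of 13 STAT6 target genes, 2 were higher, a share near the 11.9% of all genes called higher, and 11 were not called (median 0.46). These were Ccr4, a chemokine receptor of type 2 helper T cells (2.67 ± 0.48, adjusted p = 0.00737 by limma), and Il4ra, the IL-4 receptor chain (1.06 ± 0.22), which was not called with CD3 centring (adjusted p = 0.107). Gata3, the type 2 master regulator (0.62 ± 0.51), and Chil3, a macrophage lectin gene (-0.60 ± 1.51), were not called.

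Of 16 measured target genes of STAT2 and IRF9, 2 were higher, 1 lower and 13 not called, with a median of 0.01, while Stat2 itself was higher. Among all genes 11.9% were called higher and 12.2% lower, so the share called higher was near that of all genes. Bst2, which encodes tetherin (1.76 ± 0.20, adjusted p = 0.00122 by limma), and Xaf1, a pro-apoptotic gene (1.45 ± 0.32), were the higher ones. Xaf1 was not called without ICN1 replicates 2 or 3 (adjusted p = 0.0566 and 0.0520). Rsad2, which encodes the antiviral enzyme viperin, read 13.57, 13.89 and 12.41 in ICN1 and 7.28, 8.45, 6.11 and 7.21 in TEL-JAK2. It fell 65.3-fold (-6.03 ± 0.57, adjusted p = 0.000498), whereas Irf7, a regulator of interferon genes (0.13 ± 0.39), and Ifih1, a sensor of viral RNA (0.06 ± 0.31), were not called. Without TEL-JAK2 replicate 3, 4 genes of this list were higher, and without replicate 2, 2 were lower.

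With CD3 centring the split of the lists turned toward lower calls: receptors had 9 higher and 7 lower, inhibitors 7 and 8, STAT5 targets 8 and 6, STAT3 targets 2 and 2, and STAT2-IRF9 targets 2 and 5. The whole array turned the same way, since this centring moved every difference by -0.62. Over all 45037 probe sets, 1558 were then higher and 30005 lower, so the turn is not particular to these lists. Ep300 (-0.57, adjusted p = 0.0252) and Ifnar2 (-0.53, adjusted p = 0.0487) were then called lower by limma.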

How the data were processed

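RNA of 7 leukemic cell suspensions was measured on 1 array each. The authors deposited log2 values made with RMA, per the submitters' processing notes, with no version or settings stated there. RMA draws arrays toward 1 distribution and compresses folds near background. Scan dates and detection calls were not used here, so batches could not be tested, and the number of arrays limits the precision.

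Names came from the platform annotation (34945 with 1 symbol, 932 with several, 9160 with none). A linear model (limma 3.58.1, R 4.3.3, moderated by eBayes, two-sided, TEL-JAK2 minus ICN1) was fitted to all 45037 and adjusted by Benjamini-Hochberg. Pathway genes came from a second fit on 1 probe set per gene, that with the highest mean. Exact permutation tests used SciPy 1.17.1. The members and lists were chosen with earlier results of these data known, and the lists received no set test. Pathway genes were named by rule: up to 4 called members with the smallest adjusted p, 2 uncalled members with the highest level, and all members of a count of 5 or fewer. The 2 brightest members were named for marker lists whose groups did not overlap: Cd3d and Thy1 (0.51 and 0.54), Tfrc and Gata1 (-1.67 and -0.81), S100a9 and S100a8 (-3.36 and -3.17), Itga2b and Gp9 (-0.98 and -0.92), Lyz2 and Csf1r (0.31 and -2.59), Nkg7 and Klrd1 (4.90 and 1.64), and Epcam and Ccl25 (6.15 and -0.20), as log2 differences. The alternatives were other scalings, moderations, array weights, thresholds, probe set choices and left-out arrays. On simulated arrays of all 45037 probe sets the fit recovered 50 of 100 changes of 1 log2 and 86 of 100 of 2 log2, with 13 false calls, and made 0 calls with no change. Far fewer probe sets were changed there than the 8832 called in the data. The adjustment was therefore stricter, and these recovery shares do not carry over to the real fit. Figures were drawn with matplotlib 3.10.9.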

Additional observations from a re-analysis of the deposited data

Results flagged for a closer look

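Of 58 results checked in the 4 TEL-JAK2 arrays (13 STAT probe sets and 45 pathway genes), 4 had 1 array far from the other 3, where chance gives about 1 in 20. None was a STAT probe set. Tyk2 read 8.80 in TEL-JAK2 replicate 2, above 8.51 to 8.55 in the others. Ncoa1 read 9.77 in replicate 3, above 9.18 to 9.25. Birc5 read 9.23 in replicate 3, below 10.12 to 10.25. Ccr4 read 7.58 in replicate 4, below 8.79 to 8.84.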

How the results depend on the processing

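The 7 STAT calls became 6 to 8 without any 1 array, with 0 lower in each of these fits. They became 4 without ICN1 replicates 1 and 2 together (the lone ICN1 array is assumed to vary like the others), 1 in the test against a 1.5-fold difference, and 1 higher and 2 lower with CD3 centring. Of 6 genes, 4 were higher from the mean of their probe sets, as were 4 of the 6 probe sets left without suffixed ones. Over all probe sets 8832 were called, 6175 to 8563 without 1 array, 5813 without ICN1 replicates 1 and 2, 4152 at an adjusted p under 0.01, 2196 against 1.5-fold, 31563 with CD3 centring, and 4380 and 4329 genes from 1 probe set or the mean per gene. The 42 pathway calls became 35 to 42 without 1 array and, in alternatives chosen after seeing the data, 26 at 0.01, 22 against 1.5-fold and 31 without ICN1 replicates 1 and 2.

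With CD3 centring these differences changed sign: Stat3 1424272_at -0.37 and 1459961_a_at -0.57, Stat5a 1421469_a_at -0.082 and 1450259_a_at -0.22, Stat5b 1422103_a_at -0.47 and 1422102_a_at -0.56, Stat6 1426353_at -0.11, Crebbp -0.36, Ep300 -0.57, Gata3 -0.0030, Ifih1 -0.56, Ifnar2 -0.53, Il2ra -0.11, Irf7 -0.49, Irf9 -0.15, Jak2 -0.10 and Ptprc -0.34. With array weights Stat3 1459961_a_at read -0.0039, Gadd45b 0.038 and Ifih1 -0.0035, and from the mean of probe sets Ccnd3 read 0.16 and Gadd45b 0.023. Without ICN1 replicates 1 and 2, Stat5b read -0.33 and -0.37. Left-out arrays gave ranges across 0 for Stat3 1459961_a_at (-0.048 to 0.15), Stat5b 1422102_a_at (-0.065 to 0.28) and 1422103_a_at (-0.0011 to 0.39) and Stat6 1421708_a_at (-0.23 to 0.13). They also turned the sign of Ccnd3 (0.020), Chil3 (0.21 and 0.49), Ep300 (-0.017), Gadd45b (0.047, 0.20 and 0.29), Ifih1 (-0.024, -0.109 and -0.114), Ifnar2 (-0.0041 and -0.0925) and Irf7 (-0.098 and -0.14). The cause was not tested. No paired analysis was possible because the labels give no shared replicate numbers. Signal near the array medians limits Stat2, Stat4 in ICN1 and 1 Stat3 probe set.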
